A study of Mus musculus with 16 samples.

Results

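The response of the neonatal mouse ventricle to myocardial infarction (MI) was measured as an average over 2 genotypes, from all 16 of the 16 RNA-sequencing libraries in the table. The libraries form 4 groups of 4. WT sham and WT MI came from wild-type neonatal mice after a sham operation or after MI, and KO sham and KO MI came from neonatal mice with a knockout of Chrna7, which encodes the alpha 7 subunit of the nicotinic acetylcholine receptor, after the same operations. The averaged response of a gene is the mean of its MI minus sham difference in WT and the same difference in KO, so 8 MI libraries were set against 8 sham libraries with genotype in the model. The whole ventricle, above and below the ligature that causes the infarct, was taken, and polyadenylated RNA was sequenced. The labels name no Cre driver or cell type for the knockout. The day of life at surgery and at harvest, the sex, the litter and whether each library is a separate animal are not stated, so the p-values below measure only the spread between these libraries.

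As background, tying off a coronary artery starves the muscle below it of oxygen. Dying muscle cells release signals that draw neutrophils and monocytes from the blood, the monocytes become macrophages that clear debris, fibroblasts lay down matrix, and surviving muscle cells change their contractile and metabolic genes. In mice the heart of the first days of life can replace lost muscle, a capacity that is soon lost, and macrophages are needed for it. Acetylcholine acting on the alpha 7 receptor of macrophages is known to restrain their release of cytokines.

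Levels are given in CPM, normalised read counts that scale the reads of a gene to the total of its library, adjusted between libraries. The libraries held between 10711442 and 17223580 reads in genes, and 3 reads corresponded to 0.174 to 0.28 CPM. The cardiomyocyte markers summed to between 71400 and 121000 CPM in every library, which checks for heart muscle and does not tell ventricle from atrium, and Chrna7 itself was read 0 to 4 times per library in all groups, which checks neither the deletion nor the labels. The 4 KO sham libraries stood apart from the other 12 on the first principal component, with 25.5% of the variance, where they scored 27.9 to 31.6 and no other library scored above 0.97. For most genes the averaged change is therefore given with that in each genotype, where a bracketed pair of values holds the log2 changes in WT and in KO, in that order, and the WT value uses the KO sham libraries only for the shared estimate of spread. Without the KO sham group, which leaves the response in WT, 56 of 102 genes named here no longer passed and 1 changed sign. Lung RNA was also unequal. Sftpc, the surfactant protein of lung alveolar cells, stood at 33, 0, 24.9 and 22.7 CPM in WT sham, 95.1, 1.01, 101 and 33.1 in WT MI, 24.5, 18.6, 18.9 and 18.3 in KO sham and 16, 20.7, 24.7 and 237 in KO MI. The 3 highest libraries were all MI libraries (WT MI replicates 1 and 3 and KO MI replicate 4), and the main counts were repeated without them. Reads of Y-linked genes were nearly absent from WT sham replicate 1, KO sham replicate 2 and KO MI replicate 1.

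Of the 13412 genes with enough reads to test, 1811 (13.5%) passed in the averaged response at an adjusted p under 0.05, here termed called. Of these, 924 (6.89% of the genes tested) rose and 887 (6.61%) fell, and the median log2 change over all genes tested was 0.000453. The counts called in each gene list below are to be read beside these shares. The balance between rising and falling genes moved with the scaling, from 51% rising to 62.3% with upper quartile scaling (1133 rose and 687 fell) and 40.8% once transcript length and GC share were adjusted for (867 rose and 1257 fell). In the WT response 302 genes (2.25%) were called, and in the KO response 2220 (16.6%). Of the 1811 genes, 1741 had the same sign in both genotypes, 911 had an unadjusted p under 0.05 in KO but not in WT, and 246 in WT but not in KO. Without WT MI replicate 1 the number called fell from 1811 to 1201, and without the 3 libraries lacking Y-linked reads to 1012.

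Genes that moved alike in both genotypes were counted as those called in the average with the same sign in each genotype, an unadjusted p under 0.05 in each, and an unadjusted p of 0.05 or more for the difference between the genotypes (the interaction). There were 601, of which 342 rose (2.55% of the genes tested) and 259 fell (1.93%). The criterion finds no difference between the genotypes at this depth and number of libraries, and does not show that the responses were equal. The rising set held the larger changes. Its median log2 change was 0.69 in the average, 0.70 in WT and 0.70 in KO, and 103 of its genes rose more than 2-fold. The falling set had a median of -0.35 in the average, -0.32 in WT and -0.38 in KO, and only 1 of its genes, Acr, fell more than 2-fold. The falling genes were the more abundant ones, with a median of 48.8 CPM in their highest group against 9.84 CPM for the rising genes. The share of the 601 that rose was 56.9%, against 67.3% with upper quartile scaling (408 rose and 198 fell) and 46.4% after the length and GC correction. It also depended on the low genes. Of the 601, 170 that rose and 231 that fell had a mean of at least 10 CPM in 1 group. When only genes with a mean of at least 50 counts were tested, 235 rose and 232 fell alike (50.3% rising).

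A stricter description asked that no MI library overlap any sham library of its own genotype. In both genotypes every MI library lay above every sham library for 120 genes (0.895% of the genes tested) and below for 102 (0.761%). Of the genes that moved alike, 97 of the 342 that rose and 80 of the 259 that fell met it.

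**Figure D1:**
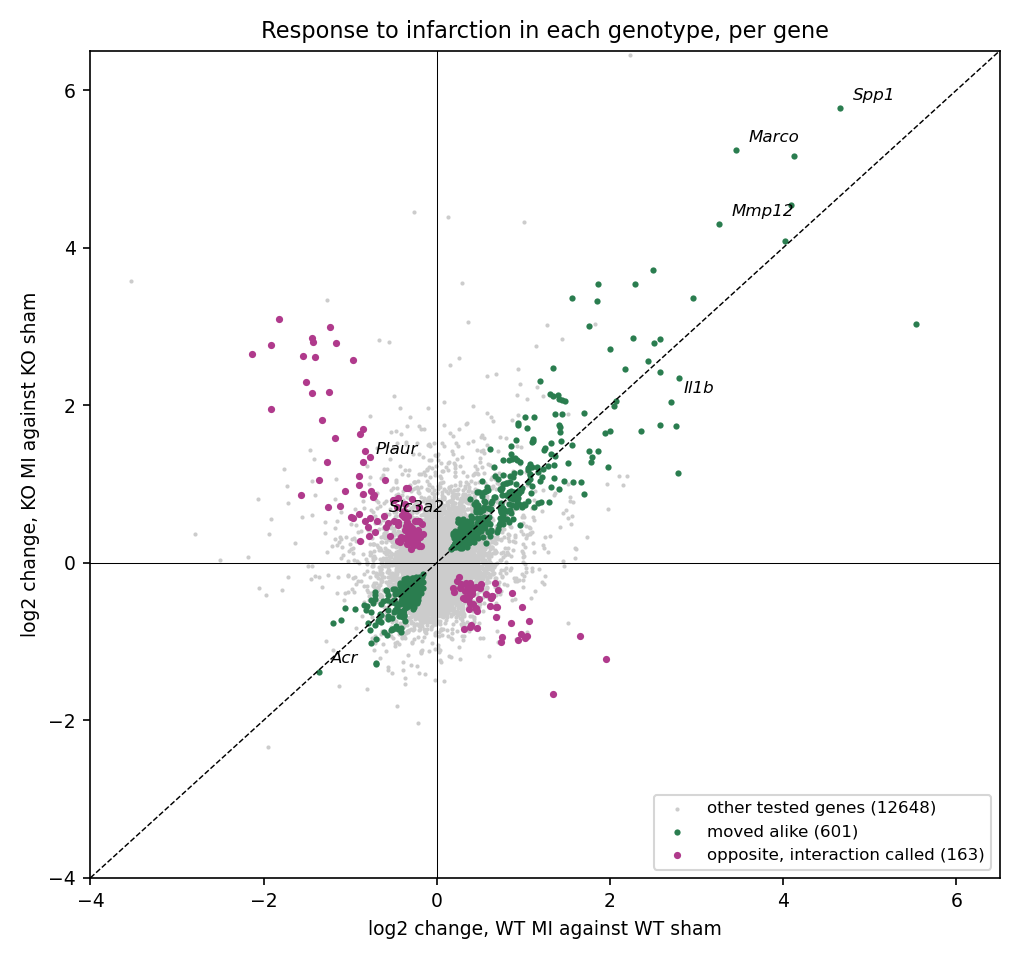
Log2 change from sham to MI in WT (horizontal axis) and in KO (vertical axis), with 1 point per gene for 13411 of the 13412 genes tested and the line of equal change dashed. The 601 genes that moved alike lie in the quadrants of equal sign around the dashed line, and the rising ones reach further from 0 than the falling ones. A further 163 genes called in the interaction lie in the quadrants of opposite sign. Both sets were picked by these signs and by the interaction p, so their quadrants follow from the selection.

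The gene with the smallest p of all was Cirbp, which encodes a cold-inducible RNA-binding protein. It stood at 112, 115, 114 and 106 CPM in WT sham and 69.1, 72, 73.3 and 68.7 in WT MI. In KO sham it stood at 133, 135, 123 and 119 CPM and in KO MI at 80.4, 70.9, 81.7 and 92.7. All 8 MI libraries lay below all 8 sham libraries, whatever the genotype. Cirbp fell by 0.65 in the average (log2 scale, SE 0.06, adjusted p = 2.84e-06), by 0.66 in WT and by 0.65 in KO, and the 95% interval of the difference between genotypes ran from -0.22 to 0.24. The rising gene with the smallest p outside the lists below was Depp1, a FoxO-regulated gene tied to autophagy, which was named after its values were seen. It stood at 25.1, 28.9, 20.6 and 27 CPM in WT sham and 58.9, 62.7, 46.3 and 46.7 in WT MI, and at 16.9, 15.9, 13.5 and 16.4 in KO sham and 38.9, 31.9, 41.5 and 24.3 in KO MI. Depp1 did not overlap between surgeries within either genotype and rose 2.15 times (log2 1.10 ± 0.11, SE, adjusted p = 1.31e-05), with 1.08 in WT and 1.12 in KO.

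Genes of white blood cells rose in both genotypes. Of 15 tested pan-leukocyte genes, which nearly all white blood cells express, 14 rose and 14 moved alike (median log2 0.83, against 0.000453 over all genes tested). Adjusted over all genes, 3 passed in the WT response and 10 in the KO response, beside 2.25% and 16.6% of all genes tested. The list summed to 111 to 133 CPM after sham and 147 to 225 after MI in WT, and 127 to 146 and 169 to 278 in KO, so that the surgeries did not overlap within a genotype. Itgb2, the shared chain of leukocyte adhesion integrins, rose 2.49 times (log2 1.31 ± 0.19, with 1.10 in WT and 1.53 in KO, adjusted p = 0.000319). It ranged over 2.42 to 4.64 CPM after sham and 5.58 to 10.7 after MI in WT, and 4.29 to 7.79 and 10.1 to 21.6 in KO, with no overlap within a genotype. Cd52, a surface glycoprotein of leukocytes, rose 2.6 times (1.04 and 1.72), and Arhgdib, an inhibitor of small GTPases in blood cells, 1.32 times (0.30 and 0.51). Exons of these last genes overlap exons of Crybg2 and Pde6h on the other strand, and the strand setting of the counting is not given in the sources used here, so their counts are uncertain. In bulk tissue more cells of a type and more RNA per cell cannot be told apart. Without the 3 libraries with the most lung RNA 12 of the 15 rose (median 0.64).

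Inflammatory monocyte and macrophage genes had larger changes. Of 19 tested, 17 rose and 13 moved alike (median log2 1.60 in the average, 1.32 in WT and 1.73 in KO). The list summed to 802 to 960 CPM after sham and 893 to 1150 after MI in WT. In KO it summed to 784 to 895 and 786 to 1490 CPM, so these sums overlapped in both genotypes. When genes under a mean of 50 counts were left out, 10 of the 12 still tested rose. Spp1, or osteopontin, is a secreted matrix protein made by macrophages in injured tissue. It stood at 0.865, 0.234, 1.46 and 0.87 CPM in WT sham and 34.8, 21.8, 2.47 and 26 in WT MI, and at 0.716, 0.956, 1.42 and 0.561 in KO sham and 31.1, 107, 21.4 and 42.2 in KO MI. No MI library overlapped a sham library, and WT MI replicate 3 was the lowest MI library. Spp1 rose 37.2 times (log2 5.22 ± 0.62, with 4.66 in WT and 5.77 in KO, adjusted p = 0.000404), and the difference between genotypes had a wide 95% interval from -2.28 to 4.51.

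The scavenger receptor Marco, which alveolar macrophages of the lung also carry, had 2 to 3 reads in every sham library and 10 to 164 in the MI libraries. Pooled within a genotype, its level was 11.5 times higher after MI in WT (95% interval 6.21 to 23.5) and 40.2 times higher in KO (20.2 to 93.9), intervals that cover counting error only. Its fitted log2 change was 4.34 in the average and 3.8 without the 3 libraries with the most lung RNA. Mmp12, the macrophage elastase, was 10.4 times higher after MI in WT (5.08 to 24.9, 94 reads against 8) and 20.1 times higher in KO (12.8 to 33.2, 428 reads against 20). WT MI replicate 3, with 2 reads, lay within the sham range of Mmp12, and exons of the gene overlap those of Mmp1b on the other strand.

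Cd14, the co-receptor for bacterial lipopolysaccharide, stood at 3.37, 4.13, 3.75 and 3.29 CPM in WT sham, 10.6, 5.67, 6.13 and 6.01 in WT MI, 4.56, 3.68, 3.89 and 3.69 in KO sham and 7.6, 7.58, 10.3 and 9.81 in KO MI. The surgeries did not overlap in either genotype, and Cd14 rose 2.08 times (log2 1.06 ± 0.14, with 0.96 in WT and 1.15 in KO, adjusted p = 0.000109). Trem2, a lipid-sensing receptor of macrophages, rose 2.54 times (log2 0.87 in WT and 1.81 in KO), and galectin 3 (Lgals3), which macrophages secrete, 3.06 times (0.96 and 2.27). Neither was counted as moving alike, since the unadjusted p of their interaction was 0.015 for Trem2 and 0.00779 for Lgals3, and neither interaction passed over all genes. Of 14 resident macrophage genes 6 rose, beside 6.89% of all genes tested, and 3 rose without the 3 libraries with the most lung RNA. Among them Fcrls, an Fc receptor-like gene of tissue macrophages, rose 1.64 times (0.88 and 0.55, adjusted p = 0.000404) and Adgre1, the F4/80 antigen, 1.8 times (0.75 and 0.95). F13a1, the coagulation factor XIII chain of macrophages, rose 1.44 times (0.74 and 0.30), and its call ended without those 3 libraries (log2 0.39).

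Of 11 tested neutrophil genes, 9 rose and 8 moved alike (median log2 1.80, 1.86 in WT and 1.67 in KO). The list summed to 15 to 30.5 CPM after sham and 32.4 to 151 after MI in WT, and 18.9 to 26.8 and 44 to 155 in KO. Most members are low, and 3 rose among the 5 with a mean of 50 counts or more. Mmp9, the gelatinase of neutrophil granules, stood at 1.21, 0.702, 0.914 and 1.45 CPM in WT sham and 7.32, 5.01, 1.65 and 2.23 in WT MI, and at 0.781, 1.1, 0.747 and 1.2 in KO sham and 1.44, 2.25, 3.15 and 5.22 in KO MI, with no overlap within a genotype. It rose 3.48 times (log2 1.80 ± 0.32, with 1.95 in WT and 1.65 in KO, adjusted p = 0.00146). Ngp, a neutrophil granule protein, rose 3.76 times (1.34 and 2.48), and Csf3r, the receptor of the granulocyte growth factor, 3.11 times (1.86 and 1.41). For both, KO MI replicate 4 was the highest KO library, which was also the library with the most lung RNA. Its part in these values was not tested beyond leaving it out, when 8 of the 11 genes rose.

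The complement cascade tags debris for removal by phagocytes. Of 13 tested complement genes, 10 rose and 7 moved alike (median log2 0.82, 0.64 in WT and 0.94 in KO), and 10 to 11 rose whichever library was left out. The list summed to 237 to 351 CPM after sham and 278 to 422 after MI in WT, which overlap. In KO it summed to 233 to 240 and 339 to 664 CPM, without overlap. C1qa, a chain of the protein that starts the classical cascade, stood at 26.3, 23.8, 25.2 and 25.8 CPM in WT sham, 50.5, 47.5, 38.1 and 31 in WT MI, 30.4, 27.7, 28.9 and 28.2 in KO sham and 43.8, 53.5, 55 and 68.6 in KO MI. All MI libraries lay above all sham libraries of either genotype. C1qa rose 1.78 times (log2 0.83 ± 0.09, with 0.73 in WT and 0.94 in KO, adjusted p = 6.96e-05), and its partner chains C1qb and C1qc rose 1.86 times (0.68 and 1.12) and 1.64 times (0.64 and 0.78). C3ar1, the receptor for the C3a fragment on myeloid cells, stood at 1.21, 1.64, 2.19 and 1.74 CPM in WT sham, 4.28, 6.92, 3.29 and 4.03 in WT MI, 2.93, 3.6, 3.21 and 3.77 in KO sham and 5.82, 7.3, 8.07 and 6.54 in KO MI. It did not overlap within a genotype and rose 2.39 times (log2 1.26 ± 0.16, with 1.47 in WT and 1.04 in KO, adjusted p = 7.90e-05).

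Of 15 tested cytokines and chemokines, 7 rose and 5 moved alike (median log2 1.03, 0.41 in WT and 1.34 in KO), and 2 rose among the smaller set with a mean of 50 counts or more. Ccl9, a chemokine of myeloid cells, stood at 1.73, 1.56, 0.822 and 0.773 CPM in WT sham, 4.28, 3.34, 2.38 and 2.58 in WT MI, 0.976, 1.4, 1.42 and 2.41 in KO sham and 4.73, 6.03, 10.04 and 5.92 in KO MI. It did not overlap within a genotype and rose 3.33 times (log2 1.73 ± 0.22, with 1.34 in WT and 2.12 in KO, adjusted p = 9.69e-05). The related Ccl6 rose 5.66 times (2.44 and 2.56), also with no overlap, which the rule that named it required. Ccl2, the main attractant of monocytes, rose 1.76 times in the average, with log2 0.29 in WT and 1.34 in KO (edgeR interaction adjusted p = 0.0626). Il1b, the cytokine interleukin 1 beta, stood at 0.519, 0.468, 0.639 and 0.773 CPM in WT sham and 10.5, 2.27, 1.19 and 1.72 in WT MI, and at 0.26, 0.368, 0.523 and 0.561 in KO sham and 2.19, 1.47, 1.05 and 2.37 in KO MI. Although low, it did not overlap within a genotype, and it rose 5.18 times (log2 2.37 ± 0.45, with 2.70 in WT and 2.04 in KO, adjusted p = 0.00233). Without WT MI replicate 1, the highest library, the averaged log2 change was 1.79.

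Promoters of 4 myeloid genes that rose are shown, each from a RefSeq start whose window holds 1 of the words searched. The letters GAGGAAGT, a core bound by the myeloid factor PU.1, and TGANTCA, the site of the AP-1 family, were searched on both strands in the 250 bases before each RefSeq transcript start (build GRCm38.p6), where N stands for any base and neither word lies inside the other. Capitals mark a match.
Spp1 (chr5:104434861-104435110, plus strand): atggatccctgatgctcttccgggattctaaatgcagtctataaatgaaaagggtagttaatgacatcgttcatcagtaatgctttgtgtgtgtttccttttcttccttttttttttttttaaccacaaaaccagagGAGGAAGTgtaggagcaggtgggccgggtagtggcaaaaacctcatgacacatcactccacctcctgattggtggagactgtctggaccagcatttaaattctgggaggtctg
Mmp12 (chr9:7344147-7344396, plus strand): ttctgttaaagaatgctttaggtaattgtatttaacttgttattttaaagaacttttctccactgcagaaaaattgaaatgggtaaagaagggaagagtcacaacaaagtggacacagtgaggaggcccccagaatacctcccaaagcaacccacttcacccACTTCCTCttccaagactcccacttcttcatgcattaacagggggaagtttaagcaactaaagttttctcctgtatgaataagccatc
C3ar1 (chr6:122856158-122856407, minus strand): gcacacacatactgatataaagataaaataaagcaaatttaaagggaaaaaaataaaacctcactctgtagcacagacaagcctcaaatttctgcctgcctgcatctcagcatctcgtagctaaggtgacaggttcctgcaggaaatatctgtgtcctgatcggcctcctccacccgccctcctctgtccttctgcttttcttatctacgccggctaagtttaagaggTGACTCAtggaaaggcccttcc
Ccl9 (chr11:83578637-83578886, minus strand): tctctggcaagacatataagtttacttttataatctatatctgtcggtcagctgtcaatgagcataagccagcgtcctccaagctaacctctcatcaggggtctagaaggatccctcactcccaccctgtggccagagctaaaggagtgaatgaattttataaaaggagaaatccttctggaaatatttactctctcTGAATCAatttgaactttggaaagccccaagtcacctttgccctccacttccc
The PU.1 word began 113 bases before the start in Spp1 and 88 bases before it in Mmp12, where it lay on the other strand and is read there as ACTTCCTC. The AP-1 word began 22 bases before the start in C3ar1 and 53 bases before it in Ccl9. GAGGAAGT was present in 2.44% of all 32851 promoters, 2.36% of those of tested genes, 5.38% of the 316 promoters found for the genes that rose alike and 1.75% of the 285 for those that fell alike. TGANTCA was present in 6.75% of all promoters, 4.54% of those of tested genes, 7.59% of those that rose alike and 4.91% of those that fell alike. The window of another RefSeq start of Spp1 held neither word, and that of another start of Mmp12 held the AP-1 word, 44 bases before it, and not the PU.1 word. A match describes these letters and does not show binding.

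By the rule of size, 14 genes that rose alike with no overlap and at least 2 CPM in 1 group were described, of which Spp1, Marco, Il1b, Mmp9, Ccl6 and Ccl9 are given above. No overlap was a condition of this choice. The other 8 are also mostly secreted or myeloid. F10, coagulation factor X, ranged over 0.078 to 0.58 CPM after sham and 0.944 to 1.97 after MI in WT, and 0.0651 to 0.515 and 1.85 to 6.1 in KO (log2 2.70 ± 0.38, 1.86 and 3.54). Clec4d, a lectin receptor of myeloid cells, had a log2 change of 2.65 ± 0.39 (2.50 and 2.79), while Pirb, a receptor that inhibits myeloid cells, had one of 1.84 ± 0.24 (2 and 1.68). Serpina3n, an acute-phase protease inhibitor, stood at 0.605, 0.935, 1.55 and 1.55 CPM in WT sham, 9.79, 4.24, 2.38 and 2.58 in WT MI, 1.17, 1.4, 0.897 and 1.12 in KO sham and 2.95, 6.46, 5.58 and 3.41 in KO MI. It rose 4.13 times in WT and 3.98 times in KO (averaged log2 2.02 ± 0.30, adjusted p = 0.000425). C1qtnf3, which is secreted and resembles C1q, rose 4.49 times (2.58 and 1.75), complement component C4b, whose reads may be shared with its near-identical copy C4a, 3.4 times (1.39 and 2.13) and Slpi, a protease inhibitor of mucosa and leukocytes, 3.3 times (1.30 and 2.14). Bst1, an ectoenzyme of myeloid and stromal cells, rose 3.18 times (1.45 and 1.89), with exons that overlap Fbxl5 on the other strand.

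**Figure D2:**
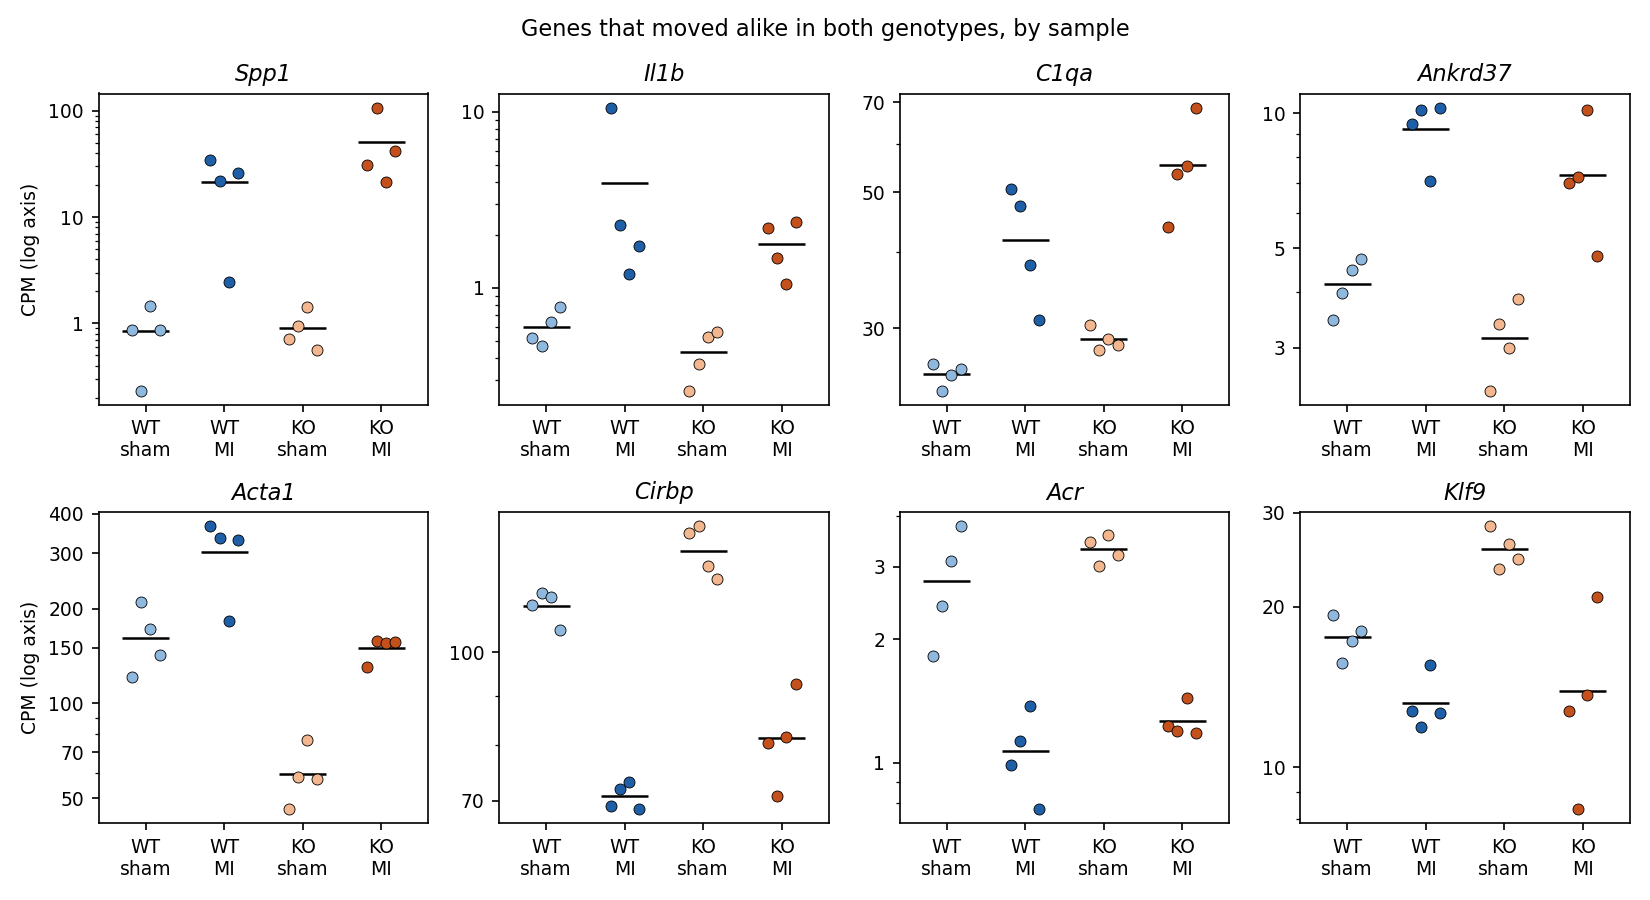
CPM on a log axis for 8 genes that moved alike, with 1 point per library, replicates 1 to 4 from left to right in each group, and a line at the group mean. The MI libraries of Spp1, Il1b, C1qa and Ankrd37 all lie above the sham libraries of their genotype, those of Cirbp, Acr and Klf9 all lie below them, and Acta1 overlaps in WT only.

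Phagocytes digest what they engulf in lysosomes and remodel matrix with secreted proteases. Of 20 phagocytic and lysosomal genes 8 rose and 5 moved alike (median log2 0.19). Atp6v0d2, a macrophage subunit of the proton pump that acidifies lysosomes, had no reads in any WT sham library and 7, 5, 3 and 7 reads in WT MI, at least 6.51-fold higher against a floor of 3 reads over the group. In KO it had 3, 1, 3 and 1 reads in sham and 15, 31, 13 and 14 in MI, a level 8.56 times higher (95% counting interval 4.12 to 20.6). Cathepsin S (Ctss), a lysosomal protease of antigen-presenting cells, rose 2.8 times (log2 1.49 ± 0.20, with 1.12 in WT and 1.85 in KO, adjusted p = 0.000346). Of 19 matrix proteases and inhibitors 9 rose and 5 moved alike. Adam8, a protease of activated leukocytes, rose 3.18 times (adjusted p = 6.96e-05, log2 1.22 in WT and 2.12 in KO), and Timp1, an inhibitor of matrix metalloproteinases, 1.7 times (0.42 and 1.12).

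Of 7 genes that present antigen on MHC class II, 4 rose (median log2 0.65). This count rested on single libraries, since 1 to 2 rose when a sham library was left out, and the same held for WT MI replicate 1 and for KO MI replicate 4, and 1 rose without the 3 libraries with the most lung RNA. Cd74, the chain that escorts class II molecules, rose 1.74 times (0.87 and 0.73, adjusted p = 0.00518), while H2-Aa, a class II chain, had a log2 change of 0.87 ± 0.26 (0.68 and 1.06) and 0.45, without passing, when those 3 were left out. H2-Aa stood at 3.77, 4.77, 4.66 and 12.6 CPM in KO MI, highest where lung RNA was highest, and its call ended in 9 of the 16 fits that left out 1 library, among them each KO sham library. The 8 lung epithelium genes tested were all positive with 1 called, Napsa, an aspartic protease of alveolar cells (log2 1.14 ± 0.30, 1.07 in WT and 1.22 in KO, and 0.54, without passing, without the 3 libraries). Their sum ranged from 5.22 to 101 CPM after sham and 5.37 to 180 after MI in WT, and 55.5 to 65.7 and 49 to 361 in KO. Of 5 lymphocyte genes tested, 0 were called with edgeR, 0 had an unadjusted p under 0.05, and DESeq2 and limma voom called 0.

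Genes of fibroblasts and scar had a smaller median change than the myeloid lists. Of 25 genes of activated fibroblasts and scar, 8 rose, 1 fell and 4 moved alike (median log2 0.20). Cthrc1, a secreted protein of activated fibroblasts, stood at 20.5, 21.3, 16.4 and 20.6 CPM in WT sham, 36.5, 34.6, 25.1 and 35.6 in WT MI, 19.6, 16.2, 16.9 and 16.6 in KO sham and 24.9, 29, 28.9 and 35 in KO MI. No MI library overlapped a sham library of either genotype. Cthrc1 rose 1.69 times (log2 0.75 ± 0.09, adjusted p = 6.96e-05), by 0.74 in WT and 0.76 in KO, with a 95% interval of the difference from -0.35 to 0.39. Ccn5, a secreted growth regulator, rose 3.14 times, with log2 2.2 in WT and 1.11 in KO. Cilp, a matrix protein of fibroblasts, was called in the average (log2 0.89 ± 0.16), which here stands for 1.61 in WT and 0.18 in KO, a difference called in the interaction (adjusted p = 0.0243).

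Of 14 quiescent fibroblast genes 1 rose and 1 fell, beside 6.89% and 6.61% of all genes tested. Tcf21, a transcription factor of resting cardiac fibroblasts, rose 1.31 times (log2 0.40 ± 0.08, with 0.24 in WT and 0.55 in KO, adjusted p = 0.00279). Pdgfra, a growth factor receptor of fibroblasts, had a log2 change of -0.29 ± 0.09, with -0.04 in WT and -0.55 in KO, and its call ended without any one of WT sham replicates 1, 3 and 4, KO sham replicates 1 and 2, WT MI replicates 1 and 2 and KO MI replicates 2 and 3. Of 24 TGF-beta and BMP genes 5 rose, 1 fell and 2 moved alike. Over all genes tested 6.89% rose and 6.61% fell, and 2.55% rose alike and 1.93% fell alike. Smad7, the feedback inhibitor of TGF-beta signalling, rose 1.52 times (0.47 and 0.73, adjusted p = 0.00111) and the ligand Bmp4, whose exons overlap a gene model on the other strand, 1.29 times (0.38 and 0.36).

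Some genes of the heart muscle itself fell, by small amounts. Of 20 cardiomyocyte genes 7 fell and 3 moved alike (median log2 -0.13, -0.17 in WT and -0.15 in KO), and 4 fell when either WT sham replicate 3 or WT MI replicate 1 was left out. Adjusted over all genes, 0 were called in the WT response and 8 fell in the KO response. Over all genes tested, 2.25% were called in WT and 16.6% in KO, in either direction. Atp2a2, the calcium pump of the sarcoplasmic reticulum, stood at 9204 to 10210 CPM after sham and 6959 to 9911 after MI in WT, and 11180 to 11720 and 6399 to 8377 in KO. WT MI replicate 3, at 9911 CPM, overlapped the sham libraries. Atp2a2 fell by 0.47 (log2 scale, SE 0.08, adjusted p = 0.000596), by 0.25 in WT and 0.68 in KO. Phospholamban (Pln), which restrains that pump, fell by 0.44 (-0.40 and -0.48, adjusted p = 0.00728), with overlapping libraries in both genotypes and exons that overlap Cep85l on the other strand. Titin (Ttn), the elastic filament of the sarcomere, fell by 0.37 (-0.25 and -0.50), and Rbm20, which splices titin, fell by 0.32 (-0.27 and -0.38).

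Of 19 cardiac ion channel and calcium handling genes 6 fell and 3 moved alike (median log2 -0.27), and 18 of 19 were negative. By genotype, 0 were called in the WT response and 7 fell in the KO response. Over all genes tested, 2.25% were called in WT and 16.6% in KO, in either direction. Kcnd2, a potassium channel of early repolarization, ranged over 3.75 to 4.64 CPM after sham and 2.06 to 4.12 after MI in WT, and 6.74 to 9.92 and 2.78 to 6.92 in KO. The surgeries overlapped in both genotypes, and Kcnd2 fell by 0.74 (adjusted p = 0.0085), by 0.44 in WT and 1.04 in KO.

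Of 17 stress and fetal muscle genes 3 rose, beside 6.89% of all genes tested. The count was 1 without any one of WT sham replicate 4, KO sham replicate 2 and KO MI replicates 2 and 4. Skeletal actin (Acta1), the fetal actin isoform that the strained heart makes again, stood at 121, 210.5, 173 and 142 CPM in WT sham and 365, 335, 183 and 331 in WT MI, and at 46.2, 58.5, 76.3 and 57.7 in KO sham and 131, 158, 156 and 156 in KO MI. The lowest WT MI library, replicate 3, lay within the WT sham range, and all KO MI libraries lay above KO sham. Acta1 rose (log2 1.12 ± 0.14, adjusted p = 0.000176), by 0.91 in WT and 1.33 in KO, from a lower level in KO sham. Xirp2, which binds actin at muscle cell junctions, had an averaged change of 0.50 ± 0.14, with 1.10 in WT and -0.11 in KO (interaction adjusted p = 0.0282), and its call ended without any one of WT sham replicate 4, KO sham replicate 2 and KO MI replicates 2 and 4. Nppb, the brain natriuretic peptide, had a log2 change of 0.65 ± 0.19 (0.57 and 0.73, adjusted p = 0.0378), and its call ended without any one of WT sham replicates 1, 2 and 4, KO sham replicates 2, 3 and 4, WT MI replicates 2 and 4 and KO MI replicates 2, 3 and 4.

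Nppa, the atrial natriuretic peptide, did not pass in the average (log2 1.33 ± 0.42, with 0.15 in WT and 2.50 in KO, adjusted p = 0.0531). It stood at 1937, 1191, 1033 and 333 CPM in WT sham, 1098, 1066, 1023 and 1796 in WT MI, 230.4, 145, 363 and 152 in KO sham and 412, 1819, 644 and 2186 in KO MI, so WT sham spanned the range of WT MI. Atrial markers summed to 832 to 3640 CPM after sham and 1460 to 2320 after MI in WT, and 390 to 745 and 786 to 2950 in KO. That list includes Nppa itself, so its sum is not independent of Nppa. With an atrial index of Myl7, Myl4 and Sln, which leaves Nppa out, as a covariate the change was 1.24, now passing. Myh7, the fetal myosin heavy chain, had a log2 change of 0.05 ± 0.12 (-0.22 and 0.31, adjusted p = 0.835), whose sign turned in several fits listed in the closing section.

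The glycolysis and hypoxia genes that passed all rose, and the fatty acid genes that passed all fell. Of 29 tested glycolysis and hypoxia genes, 16 rose and 4 moved alike (median log2 0.21, 0.13 in WT and 0.35 in KO), and 10 rose without the 3 libraries lacking Y-linked reads. Ankrd37, an ankyrin-repeat gene induced by low oxygen, stood at 3.46, 3.98, 4.48 and 4.74 CPM in WT sham, 9.46, 10.2, 7.05 and 10.3 in WT MI, 2.41, 3.38, 2.99 and 3.85 in KO sham and 6.99, 7.23, 10.2 and 4.8 in KO MI. The surgeries did not overlap in either genotype. Ankrd37 rose 2.28 times (log2 1.19 ± 0.15, adjusted p = 7.90e-05), by 1.16 in WT and 1.22 in KO, with exons that overlap Lrp2bp and Ufsp2 on the other strand. P4ha1, a collagen prolyl hydroxylase induced by hypoxia, stood at 43.7, 35.1, 39.8 and 30.6 CPM in WT sham, 48.9, 51.6, 50.9 and 47.2 in WT MI, 28.6, 29, 32.3 and 30.6 in KO sham and 44.7, 46.1, 47.5 and 40.6 in KO MI. It did not overlap within a genotype and rose 1.41 times (log2 0.49 ± 0.07, with 0.41 in WT and 0.57 in KO, adjusted p = 0.00017). Slc16a3, the lactate exporter, rose 2.33 times in the average, with log2 0.65 in WT and 1.79 in KO (interaction adjusted p = 0.0302), and the glycolytic enzyme Pgam1 1.51 times (0.31 and 0.88).

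The promoters of Ankrd37 and P4ha1, which moved alike, are shown because they hold the word ACGTG, the core of the element bound by the hypoxia-inducible factors, in capitals on either strand. The word also lies within the E-box CACGTG.
Ankrd37 (chr8:45999851-46000100, minus strand): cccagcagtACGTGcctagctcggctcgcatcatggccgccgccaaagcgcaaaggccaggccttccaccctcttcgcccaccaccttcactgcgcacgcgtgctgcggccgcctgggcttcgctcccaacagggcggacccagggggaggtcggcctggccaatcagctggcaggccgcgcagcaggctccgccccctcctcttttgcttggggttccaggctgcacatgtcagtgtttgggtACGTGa
P4ha1 (chr10:59323046-59323295, plus strand): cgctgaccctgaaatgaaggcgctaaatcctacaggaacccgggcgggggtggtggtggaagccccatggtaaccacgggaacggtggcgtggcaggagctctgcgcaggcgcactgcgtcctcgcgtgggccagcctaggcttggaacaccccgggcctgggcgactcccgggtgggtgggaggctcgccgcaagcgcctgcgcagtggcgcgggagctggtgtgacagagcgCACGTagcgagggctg
In Ankrd37 the word began 241 and 6 bases before the start, and in P4ha1 it began 16 bases before it, on the other strand, where it reads CACGT. It was present in 16.6% of all promoters, 21.1% of those of tested genes and 46.2% of the 39 promoters found for the glycolysis and hypoxia list, which was written with knowledge of hypoxia targets. Among genes that moved alike it was present in 17.4% of the promoters of those that rose and 17.2% of those that fell, both below the share over tested genes.

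Of 26 fatty acid oxidation genes 7 fell, 3 moved alike and 25 were negative (median log2 -0.13). Within the list, 0 were called in the WT response and 6 fell in the KO response. Over all genes tested, 2.25% were called in WT and 16.6% in KO, in either direction. Pdk4, the kinase that spares glucose by closing its entry to the mitochondrion, stood at 136, 166, 136 and 157 CPM in WT sham, 100.5, 115, 90.0 and 92.1 in WT MI, 235, 249, 243 and 351 in KO sham and 119.9, 95.4, 112 and 169.6 in KO MI. The surgeries did not overlap in either genotype, and Pdk4 fell by 0.85 (SE 0.11, adjusted p = 0.000121), by 0.58 in WT and 1.12 in KO. Cpt1a, which carries fatty acids into the mitochondrion, fell by 0.35 (-0.21 and -0.48) and Ppara, the nuclear receptor that drives fatty acid use, by 0.55 (-0.62 and -0.48, adjusted p = 0.00519). Of 30 oxidative phosphorylation genes 3 fell, beside 6.61% of all genes tested, and 26 were negative (median -0.11). Ndufs1, a subunit of respiratory complex I, fell by 0.29 (-0.18 and -0.39), with exons that overlap Eef1b2 on the other strand. Ppargc1a, the coactivator of mitochondrial genes, fell by 0.72 (-1.06 and -0.38, adjusted p = 0.00347). It stood at 83.8, 72.3, 102 and 104 CPM in WT sham, 39.2, 34.4, 53.5 and 46.3 in WT MI, 75.1, 76.8, 78.5 and 72.9 in KO sham and 44.7, 51.1, 45.1 and 92.2 in KO MI, where replicate 4 was as high as the sham libraries.

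**Figure D3:**
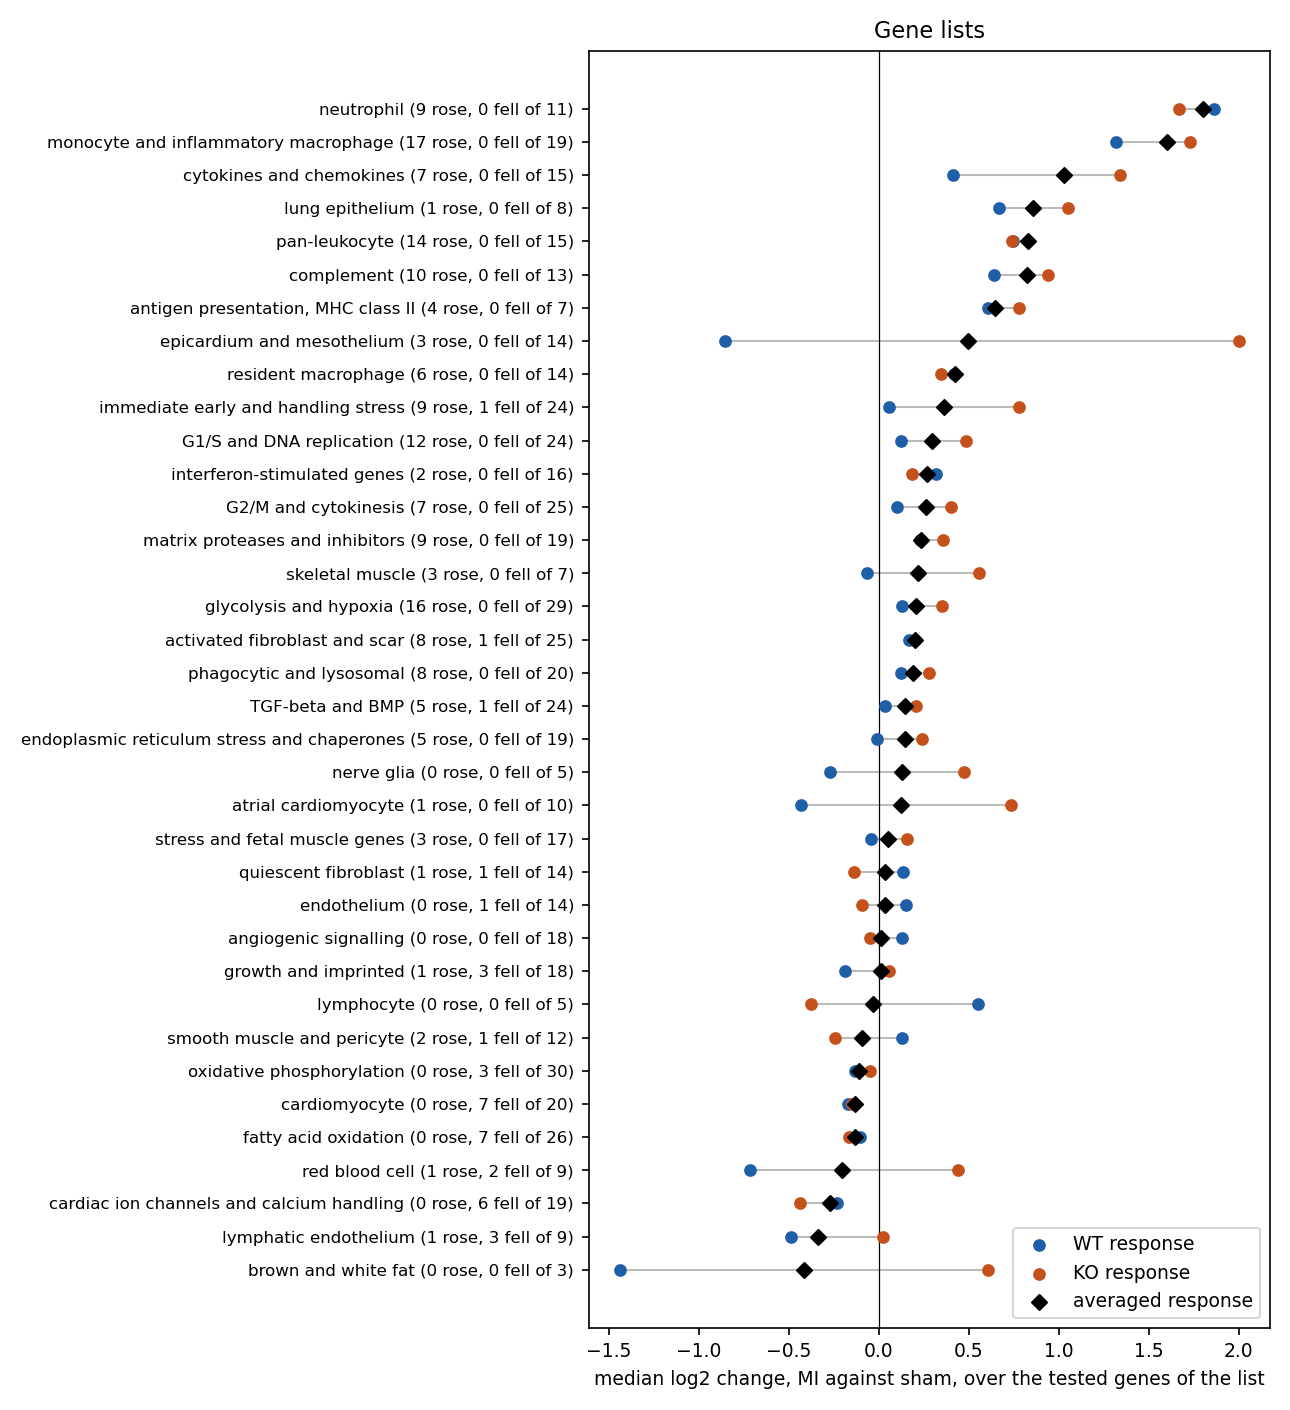
Median log2 change from sham to MI over the tested genes of 36 lists, in WT, in KO and averaged, with the counts called in the averaged response beside each name. Neutrophil, monocyte and pan-leukocyte medians lie to the right in both genotypes, while epicardium, red blood cell and atrial medians lie on opposite sides of 0 in WT and KO.

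Some cell cycle genes rose in the average, with few that met the criterion of moving alike. Of 24 genes of G1/S and DNA replication 12 rose and 1 moved alike (median log2 0.12 in WT and 0.48 in KO). Adjusted over all genes, 0 passed in the WT response and 17 in the KO response, beside 2.25% and 16.6% of all genes tested. The count that rose in the average was 5 without KO sham replicate 1, 6 without replicate 2 of either MI group, and 5 without the 3 libraries lacking Y-linked reads. E2f1, a transcription factor that starts DNA replication, was the gene that moved alike, at 23.6 to 29.8 CPM after sham and 28.5 to 37.4 after MI in WT, and 23.8 to 28.9 and 33.8 to 38.8 in KO (log2 0.40 ± 0.07, with 0.33 in WT and 0.47 in KO, adjusted p = 0.00144). Cyclin E1 (Ccne1) rose 1.46 times (0.30 and 0.78) and the helicase subunit Mcm3 1.3 times (0.12 and 0.64), and the Mcm3 call ended without the 3 libraries lacking Y-linked reads. Mcm3 overlapped between the surgeries in WT, at 67.4 to 82 CPM after sham against 67.5 to 101 after MI. Of 25 G2/M genes 7 rose, 2 of them alike, and all 25 were positive. In the WT response 0 passed and in the KO response 10, beside the same 2.25% and 16.6% of all genes tested. The count of 7 in the average rested on single libraries. It was 3 without KO sham replicate 4 or KO MI replicate 2, 4 without WT sham replicate 4 and likewise without KO sham replicate 3, WT MI replicate 2 and the third KO MI library, 12 without KO MI replicate 1 and 15 without WT MI replicate 3, and 22 without the 3 libraries with the most lung RNA. The mitotic kinase Aurka rose 1.47 times (log2 0.56 ± 0.12, 0.45 and 0.66) and the spindle protein Tpx2 1.28 times (0.15 and 0.57). The proliferation marker Mki67 stood at 200.1 to 242 CPM after sham and 176 to 278 after MI in WT, and 179.6 to 197 and 189 to 276 in KO, and did not pass (log2 0.14 ± 0.09, with 0.09 in WT and 0.19 in KO, adjusted p = 0.327), except without the 3 libraries with the most lung RNA (log2 0.25, adjusted p = 0.0436).

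Immediate early genes respond within minutes to stimuli and to tissue handling. Of 24 tested, 9 rose, 1 fell and 4 moved alike (median log2 0.06 in WT and 0.78 in KO). Adjusted over all genes, 0 rose and 1 fell in the WT response, and 12 rose in the KO response. Over all genes tested, 2.25% were called in WT and 16.6% in KO, in either direction. The list summed to 921 to 1220 CPM after sham and 955 to 1390 after MI in WT, and 498 to 651 and 650 to 1090 in KO, so KO sham was the low group. Junb, a subunit of AP-1, stood at 21.4, 19.7, 15.7 and 16.7 CPM in WT sham, 38.9, 22, 29.8 and 20.2 in WT MI, 12.2, 12.1, 13.4 and 11.9 in KO sham and 27.3, 25.3, 21 and 20.7 in KO MI. It rose 1.69 times (log2 0.76 ± 0.12, adjusted p = 0.000466), by 0.59 in WT and 0.93 in KO, and its exons overlap Prdx2 on the other strand. Klf2, a shear-responsive factor of endothelium, rose 1.6 times (0.46 and 0.90), the AP-1 subunit Jun rose 1.65 times (0.55 and 0.90), and Ier2 1.38 times (0.19 in WT and 0.74 in KO).

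Among genes that fell alike with no overlap, the 14 with the largest changes include Cirbp, given above, and the 12 that follow. Acr, the sperm protease acrosin, stood at 1.82, 2.42, 3.11 and 3.77 CPM in WT sham, 0.987, 1.13, 1.37 and 0.772 in WT MI, 3.45, 3.01, 3.59 and 3.21 in KO sham and 1.23, 1.19, 1.44 and 1.18 in KO MI. All 8 MI libraries lay below all 8 sham libraries, and Acr fell by 1.37 (SE 0.17, adjusted p = 7.90e-05), by 1.36 in WT and 1.38 in KO. Atcay, or caytaxin, ranged over 43.5 to 65.3 CPM after sham and 26.9 to 33.5 after MI in WT, and 39.8 to 51.8 and 26.2 to 38.7 in KO (log2 -0.77 ± 0.09, -0.95 and -0.59). Maml3, a coactivator of Notch signalling, fell by 0.71 (-0.82 and -0.60), and Aff2, a nuclear protein of the AF4 family, by 0.98 (-1.20 and -0.76). Gpcpd1, which splits glycerophosphocholine, fell by 0.69 (-0.53 and -0.85) and ranged over 99.3 to 124 CPM after sham and 68.3 to 84.7 after MI in WT. In KO it ranged over 146 to 166 CPM after sham and stood at 70.8, 67.9, 70.5 and 136 after MI, with replicate 4 nearest the sham libraries. Bcl2l11, the apoptosis promoter Bim, fell by 0.69 (-0.84 and -0.53) and Klf9, a transcription factor induced by glucocorticoids, by 0.65 (-0.41 and -0.88). Phactr1, a regulator of phosphatase and actin, fell by 0.70 (-0.77 and -0.63) and the sorting receptor Sorcs2 by 0.68 (-0.81 and -0.54). Klhl33, Morn1 and Cracr2a, each under 10 CPM, fell by 0.99 (-0.70 and -1.28), 0.81 (-0.77 and -0.85) and 0.78 (-0.80 and -0.76), the last no longer passing without the 3 libraries lacking Y-linked reads.

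An average hides genes whose responses differ between the genotypes. The interaction was called for 368 genes (2.74%), and 163 of these moved in opposite directions with an unadjusted p under 0.05 in each genotype, 103 down in WT and up in KO and 60 the reverse. Of the 163, 158 were not called in the average. Slc3a2, the shared heavy chain of amino acid transporters, stood at 106, 96.8, 90.3 and 96.3 CPM in WT sham, 54.5, 62, 63.8 and 60.2 in WT MI, 46, 42.6, 44.2 and 44.3 in KO sham and 53.8, 66, 66.1 and 70.8 in KO MI. The MI groups overlapped in level, WT sham lay above them and KO sham below, and the averaged change was -0.08 ± 0.06 (-0.70 and 0.53, adjusted p = 0.408) against an interaction of 1.23 ± 0.12 (adjusted p = 2.78e-05). The fetal troponin Tnni1 averaged 0.05 ± 0.09 from -0.73 in WT and 0.84 in KO, Arid5a, an RNA-binding regulator of cytokine transcripts, 0.01 ± 0.10 from -0.86 and 0.88, and Plaur, the urokinase receptor, 0.21 ± 0.13 from -0.85 and 1.28. The averaged, KO and interaction values share the KO sham libraries, which stood apart, and whether genotype or another property of those libraries set their levels cannot be told apart.

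**Figure D4:**
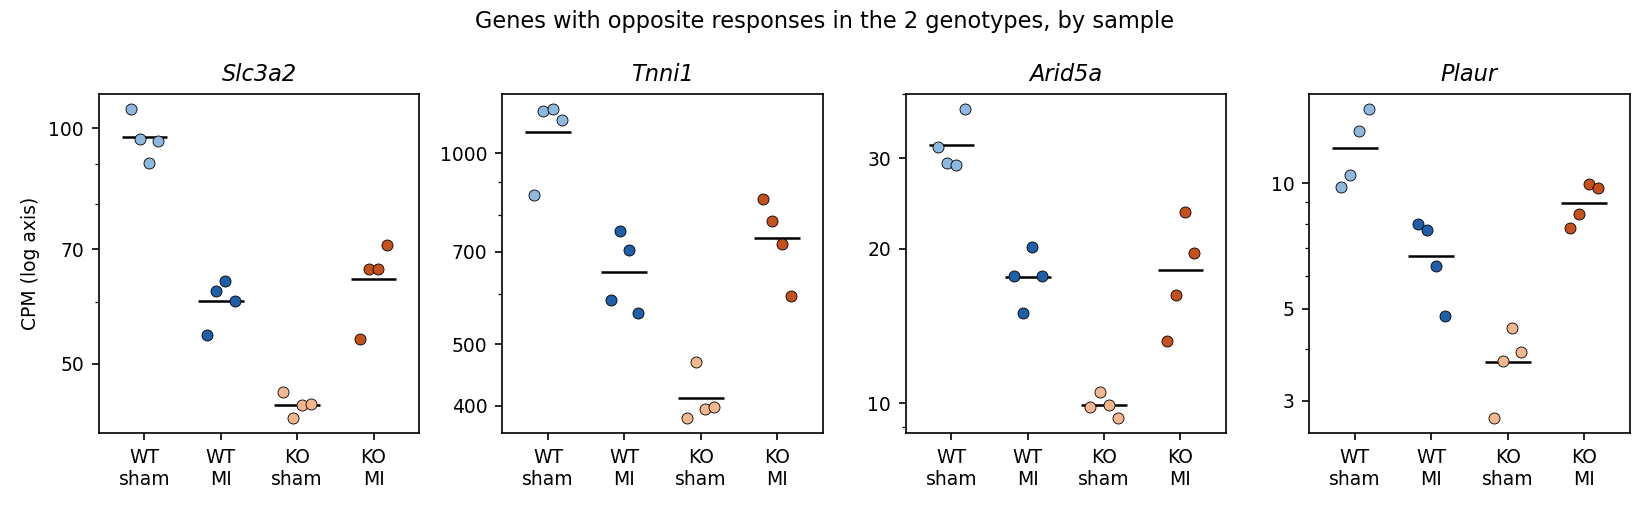
CPM on a log axis for the 4 genes with the smallest interaction p among those with opposite responses, with 1 point per library and a line at the group mean. In each, the mean is highest in WT sham and lowest in KO sham, with both MI groups between.

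Summed over lists, epicardium and red cell genes were also high in WT sham and low in KO sham. Of 14 genes of the epicardium and mesothelium, the sheet that covers the heart, 3 rose in the average and 12 were called in the interaction (median log2 -0.85 in WT and 2 in KO). Their sum was 191 to 243 CPM after sham and 139 to 160 after MI in WT, and 91.2 to 104 and 118 to 215 in KO. The keratin Krt8 rose 2.36 times in the average (log2 0.63 in WT and 1.85 in KO, interaction adjusted p = 0.049), and Krt18 1.72 times (0.18 and 1.38, 0.0356). Red blood cell genes summed to 3020 to 4780 CPM after sham and 1760 to 2160 after MI in WT, and 1030 to 1460 and 1170 to 1910 in KO. The haemoglobin chain Hba-a1, whose reads may be shared with its near-identical copy Hba-a2, averaged -0.44 ± 0.13 from -1.18 in WT and 0.30 in KO (interaction adjusted p = 0.0054), and its averaged call ended without any one of WT sham replicates 3 and 4, KO sham replicates 2 and 4, WT MI replicate 2 and KO MI replicates 1, 2 and 4. Of 18 growth and imprinted genes 1 rose and 3 fell in the average and 5 were called in the interaction. Over all genes tested these shares were 6.89%, 6.61% and 2.74%. Dlk1, a growth regulator of the fetus, averaged -0.50 ± 0.12 from -1.21 in WT and 0.21 in KO (interaction adjusted p = 0.0039), and Plagl1, an imprinted transcription factor, -0.39 ± 0.08 from -0.73 and -0.04 (0.0271).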

How the data were processed

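The data are 16 RNA-sequencing libraries of neonatal heart ventricle. The authors deposited read counts per gene in 1 table, unnormalized, of 22468 genes, with 5 further lines for reads assigned to no gene, which were left out. Reads without a feature were 23.7% to 28.2% and ambiguous reads 1.56% to 2.08%. Per the submitters' processing notes the tools were bcl2fastq 2.17, cutadapt 3.4, HISAT2 2.2.1 and HTSeq 0.13.5 with GRCm39, and the strand setting is not given in the sources used here. Counts per replicate were 10711442 to 17223580. The closest pair of replicates differed by 3.88 times the counting noise, so none were merged. KO MI replicate 4 differed from the other KO MI libraries by 58.2 to 70.4 times that noise, against 5.04 to 10.6 times among the others. Mitochondrial genes took 17.3% of its reads in genes, against 9.79% to 10.6% in the other KO MI libraries. What set this library apart was not tested.

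Counts were tested with edgeR 4.0.16 (R 4.3.3), with TMM scaling and a quasi-likelihood fit of all 4 groups. filterByExpr kept 13412 genes, and p-values were adjusted by Benjamini-Hochberg over all of them. The averaged response, each genotype's response and the interaction came from that fit, with 12 residual degrees of freedom, and errors are SE. The code was tested on simulated data. Alternatives used limma 3.58.1, DESeq2 1.42.0, other scalings, filters and covariates, and leaving out each library.

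Genes named were, in each direction, the 14 largest changes among genes moving alike without overlap whose mean reached 2 CPM in 1 group, the 2 to 4 members of each list with the smallest p, 8 fixed genes and the 4 opposite genes with the smallest interaction p. A few genes that this rule names are not reported here. The members and lists were chosen with earlier results of these data known. Counts in intervals cover counting error only. Promoters were read from RefSeq, GRCm38.p6, a build other than that of the counts, by symbol, for 265 of the 342 genes that rose alike and 203 of the 259 that fell alike.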

Additional observations from a re-analysis of the deposited data

Results flagged for a closer look

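Among 410 comparisons of a group's extreme library with the other 3, for the genes given here, 34 stood far from the rest, and chance flags about 1 in 20. KO MI replicate 4 was the high library for Ngp at 7.87 CPM, Csf3r at 7.1, H2-Aa at 12.6, Ppargc1a at 92.2, Napsa at 7.1, Sftpc at 237 and Gpcpd1 at 136. WT MI replicate 1 was the high library for Cd14 at 10.6 CPM, Il1b at 10.5, Slpi at 4.52 and Ccl21a at 3.7. These are 2 of the 3 libraries with the most lung RNA. In other MI libraries, Ccl6 was low at 2.06 CPM in WT MI replicate 4, which had Dlk1 at 13.5 and Nppa at 1796 as its highs. E2f1 was low at 28.5 CPM in WT MI replicate 3, and Acta1 at 130.9 in KO MI replicate 1. KO MI replicate 2 was high for Atp6v0d2 at 2.175 CPM, Ccne1 at 14.7 and Mki67 at 276, and KO MI replicate 3 for Hba-a1 at 678.

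Among the KO sham libraries, Lgals3 was low at 2.41 CPM and Sftpc high at 24.5 in replicate 1. Ppara at 19.2 CPM, Junb at 13.4 and Jun at 56.3 were high in replicate 3. In replicate 4, Pdk4 at 351 CPM and Cpt1a at 143 were high and Tpx2 at 40.9 was low. Among the WT sham libraries, Cthrc1 at 16.4 CPM was low and Nppb at 229 high in replicate 3, while Pgam1 at 70.3 was low and Dlk1 at 32.0 high in replicate 2. In WT sham replicate 1, Tnni1 at 858 CPM was low and Cracr2a at 4.67 high.

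The response differed between the genotypes, by the interaction term adjusted over all genes, for 13 of the genes given. On the log2 scale the KO response minus the WT response was 2.12 for Plaur, 1.73 for Arid5a, 1.57 for Tnni1, 1.48 for Hba-a1, 1.42 for Dlk1, 1.23 for both Slc3a2 and Krt8, 1.198 for Krt18, 1.15 for Slc16a3, 0.78 for Tagln and 0.69 for Plagl1. It was -1.43 for Cilp and -1.21 for Xirp2.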

How the results depend on the processing

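The number of genes called in the averaged response, 1811, became 3284 with limma voom and 1012 without the 3 libraries lacking Y-linked reads, and ranged from 1201 to 2676 when 1 library was left out. The 601 genes moving alike stayed within 1.5 times under every alternative run, with 418 to 786 when 1 library was left out. The 302 genes called in WT became 511 with DESeq2, 495 with limma voom, 197 with an atrial covariate and 166 without the 3 libraries lacking Y-linked reads. They ranged from 86 to 565 when 1 library was left out, moving by over 1.5 times without WT sham replicates 1 (178), 3 (134) and 4 (162), WT MI replicate 1 (86) and KO MI replicate 4 (565). The 2220 called in KO became 4796 with limma voom and 1291 without the libraries lacking Y-linked reads, and ranged from 1230 to 2931, with the lowest counts without KO sham replicates 1 (1388), 2 (1380) and 4 (1305) and KO MI replicates 2 (1230) and 3 (1443). The 368 in the interaction became 628 with DESeq2, 1524 with limma voom, 112 with an atrial covariate, 217 without the libraries lacking Y-linked reads and 240 without the 3 libraries with the most lung RNA. They ranged from 178 without KO sham replicate 1 to 817 without WT MI replicate 2, and lay beyond 1.5 times also without WT sham replicate 3 (205), KO sham replicates 2 (194), 3 (218) and 4 (193), WT MI replicates 1 (231), 3 (234) and 4 (213), KO MI replicate 2 (193) and KO MI replicate 4 (609). The cause of these moves was not tested.

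The alternative without the 3 libraries with the most lung RNA was chosen after seeing the data, and gave 2210 genes in the average, 773 alike, 245 in WT and 2936 in KO. An additive model gave 1448 in the average and cannot give the others. Replicate numbers are shared between groups, but 4 of 24 same-numbered pairs correlated above 0.1 (from -0.10 to 0.475) and 6 of 16 libraries correlated best with their own number, so they share only a number. With a replicate block 1995 genes were called in the average, 644 moved alike and 350 were called in the interaction. The sign of Myh7, which did not pass, turned to -0.03219 with the length and GC correction, to -0.2229 without the KO sham group, to -0.01086 without WT sham replicate 2, to -0.01809 without WT MI replicate 4 and to -0.01855 without KO MI replicate 2, in a range of -0.01855 to 0.1131 when 1 library was left out. That of Sftpc, which did not pass, turned to -0.14 without the 3 libraries with the most of it. Without the KO sham group only the response in WT is left, with 4 MI against 4 sham libraries. In it 56 of 102 genes named no longer passed, 1 changed sign and 45 kept their side of the threshold. The absence of KO sham and the smaller number of libraries cannot be told apart in these counts. RLE and upper quartile scaling changed no call among the 106 genes tested by name, and no other alternative ended more than 7 calls. At 3 reads, or 0.174 to 0.28 CPM, depth limits the low myeloid genes.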

Other observations

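Of 9 lymphatic endothelium genes 1 rose and 3 fell in the average, beside 6.89% and 6.61% of all genes tested. The median log2 change was -0.49 in WT and 0.02 in KO, with 0 of the 9 positive in WT and 5 in KO. Prox1, the factor that sets lymphatic identity, had a log2 change of -0.34 ± 0.09 (edgeR adjusted p = 0.0176), with -0.15 in WT and -0.53 in KO, and the secreted glycoprotein Reln had -0.55 ± 0.15 (adjusted p = 0.0213), with -0.49 and -0.62. Ccl21a, a lymphatic chemokine with near-identical copies in the genome, had -0.58 ± 0.17 (adjusted p = 0.0264), and its call ended without WT sham replicates 3 or 4 or KO sham replicates 1 or 2. All 3 had overlapping libraries in WT. Nts, another member of the list, ranged over 22.6 to 24.9 CPM after sham and 15.1 to 30.6 after MI in WT. In KO it ranged over 9.22 to 13.8 CPM after sham and 20.7 to 40.4 after MI.

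Of 12 smooth muscle and pericyte genes 2 rose and 1 fell, beside 6.89% and 6.61% of all genes tested. Abcc9, a potassium channel subunit listed here with pericyte genes, had a log2 change of -0.43 ± 0.09 (edgeR adjusted p = 0.00279), with -0.20 in WT and -0.67 in KO. Which cells of the ventricle its reads came from was not tested. Tagln, an actin-binding protein of smooth muscle, stood at 75.2 to 88.1 CPM after sham and 60.0 to 99.6 after MI in WT, and 42.3 to 49.4 and 68.8 to 89 in KO, and Cnn1, calponin, had 0.21 in WT and 1.10 in KO. Exons of Tagln overlap Pcsk7 on the other strand.

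Of 19 genes of the endoplasmic reticulum stress response and chaperones 5 rose in the average. By genotype, 0 were called in the WT response and 9 rose in the KO response. Over all genes tested, 2.25% were called in WT and 16.6% in KO, in either direction. Sdf2l1, a co-chaperone, had a log2 change of 0.57 ± 0.12 (edgeR adjusted p = 0.00451), with 0.32 in WT and 0.82 in KO. Manf, a secreted factor of the same response, had 0.26 ± 0.06 (adjusted p = 0.00914), with 0.09 in WT and 0.44 in KO, and its exons overlap Dcaf1 on the other strand and Rbm15b on the same strand.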
